A study of Mus musculus with 31 samples.

Results

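Maternal and paternal transcripts were counted at culture day 21 in cortical cultures grown from hybrid mouse embryonic stem cells (ESCs), in 4 of the 31 samples of the series. The BJ1 cultures (2 libraries) came from a male ESC line with a C57BL/6 (B6) mother and a JF1 father, and the JB6 cultures (2 libraries) from a male line of the reciprocal cross, with a JF1 mother and a B6 father. JF1 is an inbred strain derived from Japanese mice and differs from B6 at the 12508968 single nucleotide polymorphisms (SNPs) of the authors' first table. The labels give an Oct4-GFP transgene for the C57BL/6J parent, and the authors' notes give it for both crosses. Both lines were plated on matrigel and differentiated in a defined medium with B27, to which cyclopamine, an inhibitor of hedgehog signalling, was added early on. Each cross is 1 ESC line, so that within 1 line the parent of origin, the strain of the allele and the history of the line cannot be told apart. Nothing in the labels says whether the 2 libraries of a line came from separate differentiations, and p-values measure only the spread between these libraries. The genes tested were the 11047 autosomal features, of 16074 in the day-21 table, averaging 20 or more read bases over the 4 libraries. A read base is one sequenced base on the gene's own strand at a SNP that tells the parents apart. A gene's maternal share is its maternal read bases as a percent of both, and 50% means equal alleles.

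Imprinted genes are expressed mainly from the allele of 1 parent. The choice is laid down as DNA methylation in egg or sperm at imprinting control regions, and is kept after fertilisation by factors such as the zinc finger protein ZFP57, which binds its methylated recognition sequence. In brain, imprinted genes act in growth control, neuronal differentiation and behaviour, and some are imprinted only in neurons or only outside them.

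As examples of promoters of imprinted genes, the 250 bases before a transcription start are printed for 3 genes that were biased in both lines. They are Mest and Plagl1, expressed from the paternal allele, and Meg3, expressed from the maternal allele. Capitals mark the ZFP57 core hexamer TGCCGC, searched on both strands, so that a match on the other strand reads GCGGCA. For each gene, the window printed is the first along the chromosome that holds this hexamer, so its presence there was a condition of the choice. The sequences are RefSeq promoter windows of build GRCm38.p6, all on the + strand: chr6:30737800-30738049 for Mest, with 14 CpGs, chr10:13090582-13090831 for Plagl1, with 19, and chr12:109540746-109540995 for Meg3, with 10.
Mest: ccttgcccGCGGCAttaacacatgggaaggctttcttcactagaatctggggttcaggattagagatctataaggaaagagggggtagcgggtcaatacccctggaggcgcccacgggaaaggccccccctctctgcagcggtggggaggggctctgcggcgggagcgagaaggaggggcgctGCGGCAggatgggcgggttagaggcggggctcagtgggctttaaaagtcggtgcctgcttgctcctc
Plagl1: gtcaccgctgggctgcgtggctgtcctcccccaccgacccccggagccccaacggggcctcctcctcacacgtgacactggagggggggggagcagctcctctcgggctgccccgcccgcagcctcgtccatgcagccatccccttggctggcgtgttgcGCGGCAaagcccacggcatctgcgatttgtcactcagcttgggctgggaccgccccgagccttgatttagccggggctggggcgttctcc
Meg3: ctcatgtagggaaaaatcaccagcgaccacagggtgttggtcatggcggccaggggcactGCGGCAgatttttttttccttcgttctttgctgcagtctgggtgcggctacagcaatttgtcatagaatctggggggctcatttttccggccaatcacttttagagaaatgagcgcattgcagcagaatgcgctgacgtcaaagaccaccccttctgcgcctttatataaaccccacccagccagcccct
The hexamer was present in 8.68% of all 32851 RefSeq windows of this length and in 14.3% of the 10175 windows of tested genes. Of the listed imprinted genes biased in both lines, 25 of 34 had a window, and 6 of their 36 windows held the hexamer (16.7%). By gene these were 5 of 25 (Ltv1 and Zim1 besides the 3 printed), beside 1350 of 7867 tested genes. A match is a description of these letters and not of binding.

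The 4 libraries held 5912732 to 7448555 read bases. The X chromosome gave a paternal share of 1.13% to 2.79% in the 4 libraries. Mitochondrial RNA, which is inherited from the mother, gave a paternal share of 0.225% and 0.24% in the BJ1 libraries and 5.22% and 4.68% in the JB6 libraries, and 4.76% to 5.06% in JB6 cortex. The cultures are labelled Ctx. The 10 dorsal telencephalic progenitor markers, 9 of them detected, summed to 257 to 357 read bases per 1000000 at day 21 and 785 to 991 in newborn cortex. Of these, the cortical regulator Emx1 was at 0 to 0.169 at day 21, while the general neural progenitor factor Sox2 had means of 55.7 at day 21 and 29.0 in newborn cortex. The 10 cortical neuron markers summed to 1080 to 1550 per 1000000 at day 21 and 9070 to 10200 in newborn cortex, with 10 of 10 detected. The 10 mesendoderm and epithelium markers, 10 of 10 detected, summed to 3050 to 3590 at day 21 and 6.01 to 11.3 in newborn cortex, led by the keratin Krt8 (1440 to 1820 at day 21). Vascular, blood, meningeal and microglial markers (6 of 10 detected) summed to 432 to 755 at day 21 and 159 to 267 in newborn cortex. Fewer cells of a type and less RNA per cell cannot be told apart in such bulk samples.

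Parental bias was tested within libraries, with the strain of the allele as a covariate, so that the test is of the parental excess averaged over both crosses. A call does not need an excess in each cross. An excess in only the BJ1 or only the JB6 cross, or opposite excesses of unequal size, can give a call. Of the 11047 genes, 153 (1.38%) were called, 117 towards the maternal allele (1.06%) and 36 towards the paternal allele (0.326%). Of 67 listed imprinted features tested, 43 were called, 20 maternal and 23 paternal. Among the listed genes of known maternal expression, 16 of 30 were called, all maternal, and their median log2 ratio of maternal to paternal read bases was 0.57. Among those of known paternal expression, 23 of 30 were called, all paternal, with a median of -3.25. The median over all genes tested was 0.01. Of the 99 listed symbols, 15 had no feature at day 21 and 18 features were below the read-base minimum. One tested feature joins Snrpn and Snurf, whose transcripts share SNPs.

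**Figure D1:**
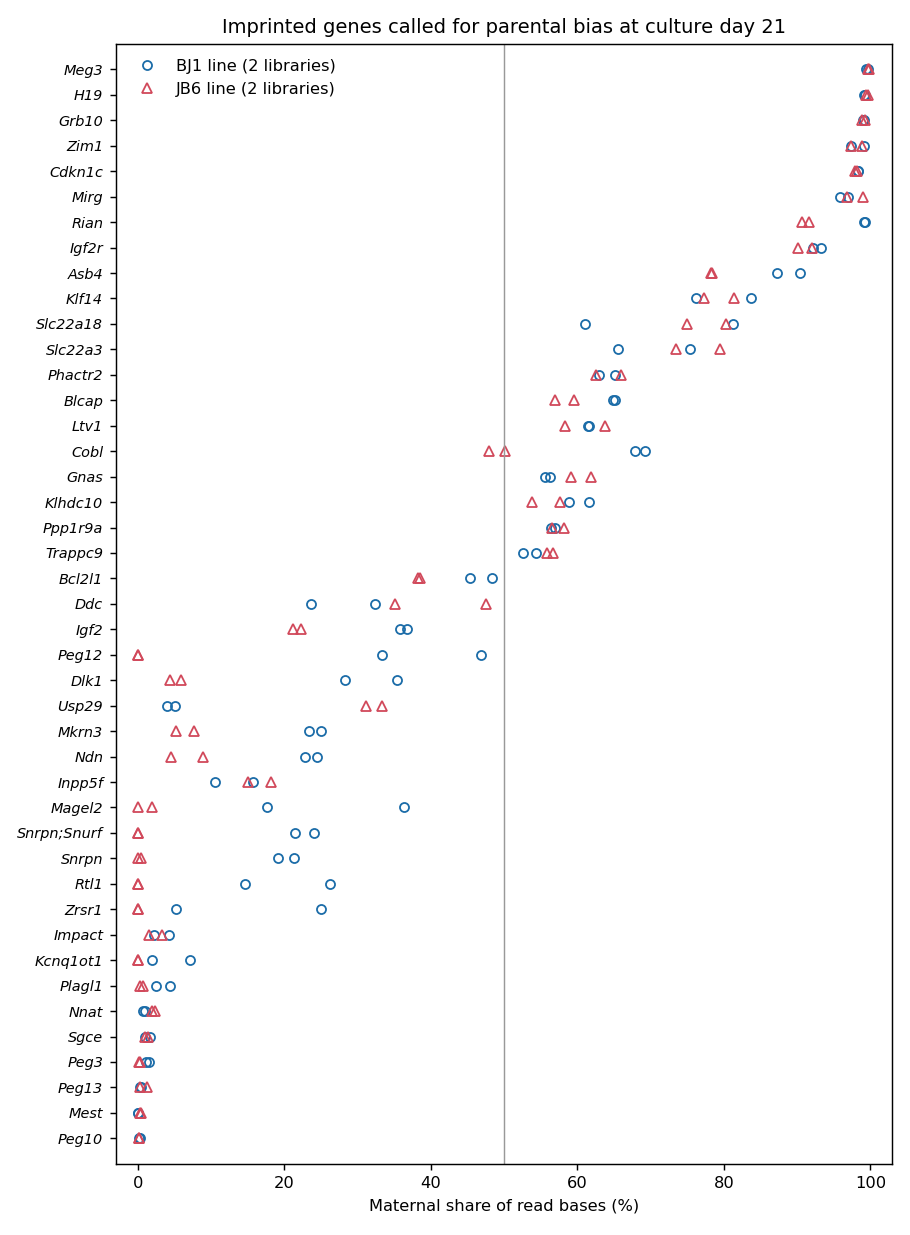
Maternal share of read bases (x axis, percent) of the 43 listed imprinted features called at culture day 21 (y axis, ordered by mean share). Each symbol is 1 library, circles for the BJ1 line and triangles for the JB6 line, and the vertical line marks 50%. Meg3, H19 and Grb10 stand near 100% and Peg10 and Mest near 0% in all 4 libraries, while Snrpn, Ndn, Mkrn3 and Dlk1 lie below 9% in JB6 and above 19% in BJ1.

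Near-complete maternal bias was seen for the noncoding RNAs Meg3 and H19, for Grb10 and Cdkn1c, which restrain growth, and for Zim1; Mirg and Rian (means of 97.1% and 95.1%) are described with their domain. Meg3, a noncoding RNA made in many neurons, had maternal shares of 99.6% and 99.4% in BJ1 and 99.8% and 99.7% in JB6. Its mean was 99.6% ± 0.153 (SD, n = 4), its log2 ratio 8.08 ± 0.166 (SE) and its edgeR adjusted p 2.88e-32. H19, the noncoding RNA next to Igf2, had shares of 99.2%, 99.1%, 99.4% and 99.6% in the same order, and an adjusted p of 0.00811. It took 0.726% to 1.01% of all read bases of a library. Grb10, an adaptor protein that dampens insulin and growth factor signalling, had shares of 99.1%, 99.0%, 99.2% and 98.8% (log2 ratio 6.66 ± 0.0708, adjusted p 4.06e-42). Cdkn1c, an inhibitor of the cell cycle, had shares of 98.3%, 98.3%, 98.2% and 97.9% at 2 SNPs (log2 ratio 5.75 ± 0.0632, adjusted p 9.36e-42). In these 4 genes the lines lay within 1 percentage point of each other, and the difference between lines was not called (adjusted p 0.226 to 0.972). Zim1, a zinc finger gene of the Peg3 domain, had shares of 97.4% and 99.1% in BJ1 and 97.3% and 98.9% in JB6. Igf2r, the receptor that clears IGF2, had shares of 93.2%, 92.1%, 90.1% and 92.0%, high in every library but short of complete.

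Further maternal calls were partial. Asb4, a gene of the Peg10 domain, had shares of 90.4% and 87.3% in BJ1 and 78.3% and 78.4% in JB6, so that the lines did not overlap (difference of log2 ratios 1.09 ± 0.335, adjusted p 0.00952). Klf14, an intronless transcription factor gene, had shares of 83.7%, 76.2%, 81.4% and 77.3%. The organic cation transporter gene Slc22a3 (65.5%, 75.4%, 79.4% and 73.5%) and the membrane transporter gene Slc22a18 (61.0%, 81.2%, 80.3% and 75.0%) were lower and scattered more. Phactr2 and Ltv1, neighbours of Plagl1, were maternal in all 4 libraries, with means of 64.2% ± 1.67 and 61.3% ± 2.28 (SD, n = 4), and Ltv1 lost its call without the first JB6 library and with DESeq2. Gnas, which encodes a G protein subunit and is imprinted in few tissues, had shares of 55.6% and 56.3% in BJ1 and 59.1% and 61.8% in JB6. Its bias was small but called with 3413 to 4882 read bases behind each value (log2 ratio 0.48 ± 0.0362, adjusted p 3.49e-13). Blcap, the gene in which Nnat lies, had shares of 64.8% and 65.1% in BJ1 and 56.9% and 59.5% in JB6 (adjusted p 1.2e-11). Trappc9 (mean 54.9%) and Ppp1r9a (mean 57.0%) passed with adjusted p of 0.0279 and 0.0444 and lost the call without any 1 of the 4 libraries.

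Several paternally expressed genes had near-complete bias in both lines. Peg10, a gene derived from a retrotransposon, had maternal shares of 0.23% and 0.233% in BJ1 and 0.121% and 0.124% in JB6, with 2175 to 4946 read bases (log2 ratio -9.18 ± 0.0835, adjusted p 2.51e-44). Its neighbour Sgce, which encodes a sarcoglycan, had shares of 1.04%, 1.68%, 1.02% and 1.43%. Mest, which encodes a hydrolase-like protein, had no maternal read base in BJ1, of 214 and 288 at its 1 SNP, which allows a maternal share of up to 1.4% and 1.04%, and 0.362% and 0.437% in JB6. All 4 libraries of each of these 3 genes were below 2%. Peg3, a zinc finger gene tied to maternal care and growth, had shares of 1.17%, 1.46%, 0.211% and 0.36%, the BJ1 values being higher (difference 2.2 ± 0.405, adjusted p 2.96e-05). Plagl1, a zinc finger regulator of growth whose promoter is printed above, had shares of 2.49% and 4.43% in BJ1 and 0.349% and 0.688% in JB6 (difference 2.82 ± 0.31, adjusted p 3.14e-09). Nnat, a small membrane protein of developing neurons, had shares of 0.996% and 0.654% in BJ1 and 1.99% and 2.31% in JB6 (difference -1.46 ± 0.124, adjusted p 2.05e-09). The sign of that difference is opposite to those of Peg3 and Plagl1. The noncoding RNA Peg13 (0.312% to 1.26%), the translational regulator gene Impact (1.57% to 4.25%) and the noncoding RNA Kcnq1ot1, which silences its neighbours in cis, were also almost wholly paternal. Kcnq1ot1 had 1.89% and 7.14% in BJ1 and no maternal read base in JB6 among 50 and 20, which allows up to 6.0% and 15.0%.

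The Prader-Willi/Angelman domain of chromosome 7 gave a different pattern, in which the BJ1 line had higher maternal shares than JB6. Genes of this domain are active on the paternal chromosome in neurons, and their loss causes Prader-Willi syndrome in humans. Snrpn, which encodes a splicing protein, had maternal shares of 21.3% and 19.2% in BJ1 and 0% (which allows up to 0.917%) and 0.5% in JB6. The lines did not overlap, and the difference of log2 ratios was 6.36 ± 0.458 (adjusted p 1.41e-14). The joined Snrpn and Snurf feature, counted at 1 SNP, had 21.4% and 24.1% in BJ1 and no maternal read base among 326 and 388 in JB6, which allows up to 0.92% and 0.773%. Ndn, a growth suppressor of neurons counted at 1 SNP, had 24.4% and 22.8% in BJ1 and 8.84% and 4.49% in JB6 (difference 2.19 ± 0.269, adjusted p 1.64e-08). Mkrn3, a ubiquitin ligase gene, had 25% and 23.3% against 5.26% and 7.69% at a mean of 34.5 read bases (difference 2.25 ± 0.884, adjusted p 0.0448). Magel2, a MAGE family gene, had 17.6% and 36.4% against 2.0% and 0% at a mean of 34.8 read bases. Peg12, a gene of the same cluster, had 46.9% and 33.3% in BJ1 and no maternal read base in JB6 among 11 and 14, which allows up to 27.3% and 21.4%, and it lost its call without the second BJ1 library or either JB6 library. In all 6 features every BJ1 library was above every JB6 library. Of 8 features of this domain tested, 7 differed between lines, against 34.4% of all genes (3799 of 11047) and 29 of 67 listed features. The remaining member of the domain with a difference was Atp10a, a lipid transporter gene, which was not called for parental bias. Its JF1 allele was the higher in both lines (maternal shares of 17.7% and 25.3% in BJ1, 68.5% and 76.9% in JB6). In newborn cortex its B6 allele was the higher, with mean maternal shares of 62.0% in BJ1 and 40.1% in JB6 hybrids at a mean of 30.3 read bases. The line difference at day 21 minus that in newborn cortex was -4.4 ± 0.605 (adjusted p 1.73e-07), a test that called 18.1% of 9686 genes.

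The Dlk1-Meg3 domain on chromosome 12 was biased throughout, with both parental directions. Dlk1, a Notch-related ligand that holds cells in an undifferentiated state, had maternal shares of 35.4% and 28.3% in BJ1 and 5.95% and 4.41% in JB6 (log2 ratio -2.63 ± 0.0757, difference between lines 3.06 ± 0.16, adjusted p 3.46e-13). Rtl1, a retrotransposon-derived gene, had 26.2% and 14.6% in BJ1 and no maternal read base in JB6, where only 9 and 3 were counted, and it lost its call without the second BJ1 or the first JB6 library. The JB6 counts of Rtl1 allow a maternal share of up to 33.3% and 100%. Its difference between lines was not called (3.8 ± 1.89, adjusted p 0.12). Rian, a noncoding RNA of the maternal chromosome, had shares of 99.2% and 99.1% in BJ1 and 90.7% and 91.6% in JB6 (difference 3.48 ± 0.172, adjusted p 1.19e-19). In newborn cortex Rian was also higher in BJ1, with means of 99.9% in BJ1 and 92.4% in JB6 hybrids. On the log2 scale its line difference was smaller at day 21 than in newborn cortex, by -2.4 ± 0.497 (adjusted p 0.000623), a test that called 18.1% of 9686 genes. Mirg, the microRNA host transcript downstream, had 95.8%, 96.9%, 99.0% and 96.8%, with no called difference between lines.

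Igf2, the fetal growth factor paired with H19, was paternal but incomplete, with maternal shares of 35.8% and 36.8% in BJ1 and 21.2% and 22.3% in JB6 (log2 ratio -1.33 ± 0.0243, adjusted p 4.49e-34; difference between lines 1.04 ± 0.048, adjusted p 1.33e-20). In newborn cortex its means were 50.4% in BJ1 and 30.7% in JB6 hybrids. Usp29, next to Peg3, was the reverse of the Prader-Willi genes, with 4.0% and 5.08% in BJ1 and 31.2% and 33.3% in JB6 (difference -3.25 ± 0.731, adjusted p 0.000478). Zrsr1, an intronless splicing factor gene, had 25% and 5.26% in BJ1 and no maternal read base among 75 and 46 in JB6, which allows up to 4.0% and 6.52%. Inpp5f, one transcript of which is imprinted in brain, had 15.7%, 10.6%, 18.2% and 15.1% (log2 ratio -2.52 ± 0.123, adjusted p 2.79e-19). Cobl and Ddc, neighbours of Grb10, were called but reached 10 points from 50% in BJ1 only. Cobl, a cytoskeletal gene, had 67.9% and 69.2% in BJ1 and 48.0% and 50.1% in JB6. Ddc, the enzyme that makes dopamine, had 23.7%, 32.4%, 35.1% and 47.5% and lost its call without either BJ1 library or the first JB6 library. The anti-apoptotic gene Bcl2l1 (45.3% and 48.4%, then 38.3% and 38.5%) lost its call without any 1 library.

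Of the 67 listed features, 24 were not called. Several of these are known as imprinted in brain. Ube3a, the Angelman syndrome gene, which is silenced on the paternal chromosome in neurons, had shares of 41.5%, 70.8%, 40% and 47.5% at a mean of 50.0 read bases, so that the libraries of 1 line lay on both sides of 50%. Zdbf2, imprinted through its paternal allele, had 56.5% and 53.2% in BJ1 and 39.4% and 39.8% in JB6. Slc38a4, an amino acid transporter gene, had 46.7% to 51.3%. Eif2c2, an Argonaute gene near Peg13, had 50.3% to 56.9%, and Chrac1 beside it 47.6% to 56.4%. Copg2, which overlaps the Mest domain, had a mean of 61.6% ± 8.62 (SD, n = 4) at 1 SNP (adjusted p 0.239). Casd1, Herc3 and Adam23 had means of 53.6%, 52.2% and 51.8%. The remaining 15 had means between 45.0% and 54.9%. Among these, Tnfrsf23, a decoy receptor gene, was maternal in BJ1 (97.4% and 100%) and paternal in JB6 (0% and 18.2%), that is, from the B6 allele in both lines.

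When the 2 lines were set against each other, the 153 called genes fell into 4 classes by whether the mean share was at least 10 points from 50%. The classes use the values that made the calls and are given as a description. Biased on the same side in both lines were 43 genes, 34 of them listed. Biased in JB6 only were 75 genes, of which 3 were listed (Peg12, Gnas and Bcl2l1), and in BJ1 only 11 genes, of which 4 were listed (Cobl, Ddc, Klhdc10 and Blcap). The remaining 24 genes, 2 of them listed, were under 10 points in both lines or on opposite sides. Within 2 points of the limit, 9 called genes in BJ1 and 4 in JB6 lay just inside (10 to 12 points), and 7 and 5 lay just outside (8 to 10 points). A test of each line alone, in which the strain of the allele is not separated from the parent, gave more calls: 2634 genes (23.8%) in BJ1 and 2403 (21.8%) in JB6. The limit of 10 points, and not absence of bias in the other line, sets the 1-line classes. By this edgeR test Gnas was also called in BJ1 (adjusted p 8.01e-07), and Blcap (1.82e-05) and Klhdc10 (0.00819) in JB6. Bcl2l1 was not called in BJ1 (0.425), nor were Cobl (0.806) and Ddc (0.199) in JB6. The BJ1 count was 1256 and 1416 without its first or second library, and the JB6 count 1278 and 1270.

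**Figure D2:**
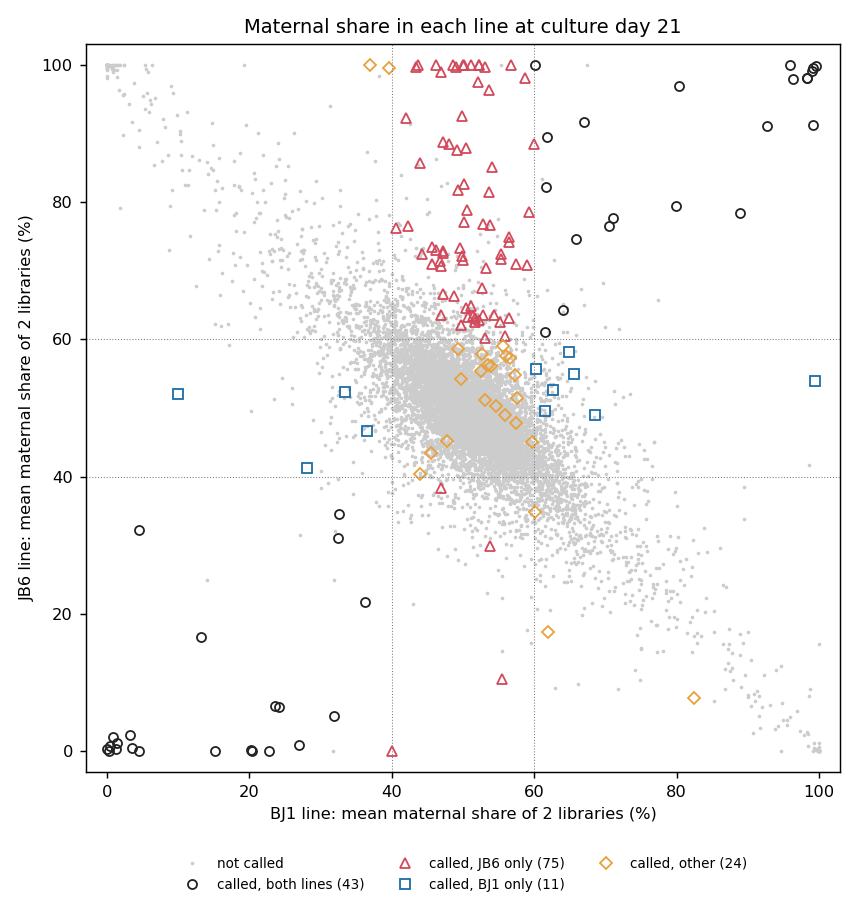
Mean maternal share of 2 libraries in the BJ1 line (x axis, percent) against the JB6 line (y axis, percent) for the 11047 autosomal genes tested at culture day 21. Grey points were not called; open symbols were called and carry their class, with counts in the legend, and dotted lines mark 40% and 60%. The classes are set by these values, so that the 43 genes of both lines sit in the lower left and upper right corners by rule. Of the 75 JB6-only genes, 71 form a column above 60% in JB6 at about 50% in BJ1.

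Of the 9 unlisted genes biased in both lines, 7 were maternal and 2 paternal, and their median was 52.5 read bases. H2-Ab1, a class II antigen gene, had shares of 95.5% and 96.2% in BJ1 and 100% in both JB6 libraries, where only 5 and 7 read bases were counted. The kinesin gene Kifc1 had 79.7% and 80.9% against 93.8% and 100%. Ccdc90a had 59.9% and 63.3% against 82.5% and 81.8% at a mean of 228 read bases (log2 ratio 1.44 ± 0.125, adjusted p 1.68e-11). The difference between lines was called for Kifc1 (-3.0 ± 1.05, adjusted p 0.024) and Ccdc90a (-1.52 ± 0.255, adjusted p 7.34e-06), with JB6 the more maternal. For H2-Ab1 it was not called (-1.29 ± 1.31, adjusted p 0.491). This test called 34.4% of all genes. The iron regulator Hfe, the interferon gene Ifnk, the antigen gene H2-T24 and the receptor-associated gene Shisa9 had a mean of 24.0 to 56.2 read bases and lost their calls without any 1 of the 4 libraries. Daxx, which encodes a histone chaperone, had 73.1% and 47.1% in BJ1 and 100% in both JB6 libraries at a mean of 24.8 read bases. 6430704M03Rik (mean 70.2%) lost its call without the first library of either line. Of the 9, 4 could be tested in newborn cortex and 0 were called there (57 of 10402 genes called by edgeR, 684 at an unadjusted p under 0.05).

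The JB6-only class was the largest, and 72 of its 75 genes were outside the imprinted lists, 70 of them maternal. In these 72 genes the median maternal share was 74.5% in JB6 (range 10.6% to 100%) and 50.5% in BJ1. Tubb5, a beta tubulin gene, had shares of 54.7% and 52.7% in BJ1 and 96.4% and 96.2% in JB6, with 6226 to 9411 read bases per library. Its log2 ratio over both lines was 2.45 ± 0.0366 (adjusted p 3.23e-37), and its JB6 log2 ratio was 4.7. Rps18, a ribosomal protein gene chosen after its values were seen, had 46.3% and 46.1% in BJ1 and 99.9% in both JB6 libraries at a mean of 4910 read bases. Among the other genes of the class that are described here, 5 had no paternal read base in JB6. Bag6, a chaperone gene, had 52.2% in both BJ1 libraries and 100% in both JB6 libraries, where a paternal share of up to 2.14% and 2.48% is allowed by 140 and 121 read bases. Stk19 (50.8% and 53.8%, then 100%), 2310061I04Rik (47.8% and 54.5%, then 100%), Erp44 (42.1% and 55.1%, then 100%), which encodes a chaperone of the secretory pathway, and Wasf2 (50.9% and 49.3%, then 100%), which encodes an actin regulator, had no paternal read base in JB6 either. The galactosyltransferase gene B3galt4 had 54.7% and 62.8% in BJ1 and 98.4% and 97.8% in JB6. Others were intermediate. The chromatin reader Brd2 had 55.1% and 53.1% against 86.2% and 84.1%, the antigen gene H2-D1 had 51.0% and 56.2% against 82.1% and 80.8% in its larger feature, and the phosphatase inhibitor Ppp1r11 had 57.1% and 61.4% against 75.8% and 81.4%. The table holds a second H2-D1 feature, with a mean of 31.8 read bases and shares of 97.3% and 100% in BJ1 and 33.3% and 50% in JB6, which was not called. H2-D1 has near-identical relatives, so that its counts are uncertain. On chromosome 13, Gfod1 had 56.4% in both BJ1 libraries and 75.8% and 73.9% in JB6, and Tpmt, a drug-metabolising enzyme, had 58.1% and 61.9% against 84.6% and 92.3% at a mean of 26.0 read bases. Tpmt lost its call without any 1 library, and Gpank1 (51.5% and 56.2%, then 72.3% and 81.1%) without the second library of either line.

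Higher JB6 shares came with fewer SNPs read. The 16 maternal genes above 95% in JB6 had a median of 2 covered SNPs (range 1 to 11), the 12 between 80% and 95% had a median of 7, and the 42 between 60% and 80% had a median of 12. In JB6 the paternal allele is the B6 allele. Per the authors' notes, the B6 parents of the in vitro lines came from a mixed CBA and B6 background and carried stretches of CBA and rare DBA sequence, while the in vivo hybrids came from pure strains. The authors removed 6252 SNPs at which JF1 matches CBA or DBA, chosen on the 12 in vitro libraries of both lines pooled. The criterion was a B6 base under 10% and a JF1 base over 40% of more than 50 pooled reads, and was not applied to each line. The part of such sequence in the JB6-only values was not tested.

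The JB6-only genes were unevenly spread along the genome. Of the 72 unlisted genes, 43 were on chromosome 17, which held 508 of the 11047 genes tested (4.6%). In gene order, 37 of them fell in 1 stretch of 73 tested genes from Zbtb22 to 2310061I04Rik, counting genes no more than 10 tested genes apart as 1 stretch. This stretch includes genes of the mouse major histocompatibility complex, and 507 of the 508 genes had a place in the order. Its 73 genes had a median maternal share of 70.4% in JB6 and 50.5% in BJ1. At 60% or more were 50 of them in JB6 and 6 in BJ1, and 15 were above 95% in JB6. The stretch was drawn through its 37 JB6-only genes, whose class is set by these same shares. The contrast between lines within it is therefore partly fixed by the rule and is given as a description. By the same rule, the largest stretch on chromosome 15 ran from Krt4 to Csad (6 of 8 tested genes JB6-only). On chromosome 4 it ran from Wasf2 to Arid1a (3 of 5) and on chromosome 13 from Cap2 to Tpmt (2 of 6). The 7 unlisted JB6-only genes of chromosome 15 fell in 2 separate groups. The 10 of chromosome 4 fell in 6 groups and the 6 of chromosome 13 in 5, so that these were mostly scattered. In newborn cortex the same chromosome 17 stretch had 54 genes tested, with a median share of 49.2% in JB6 hybrids.

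**Figure D3:**
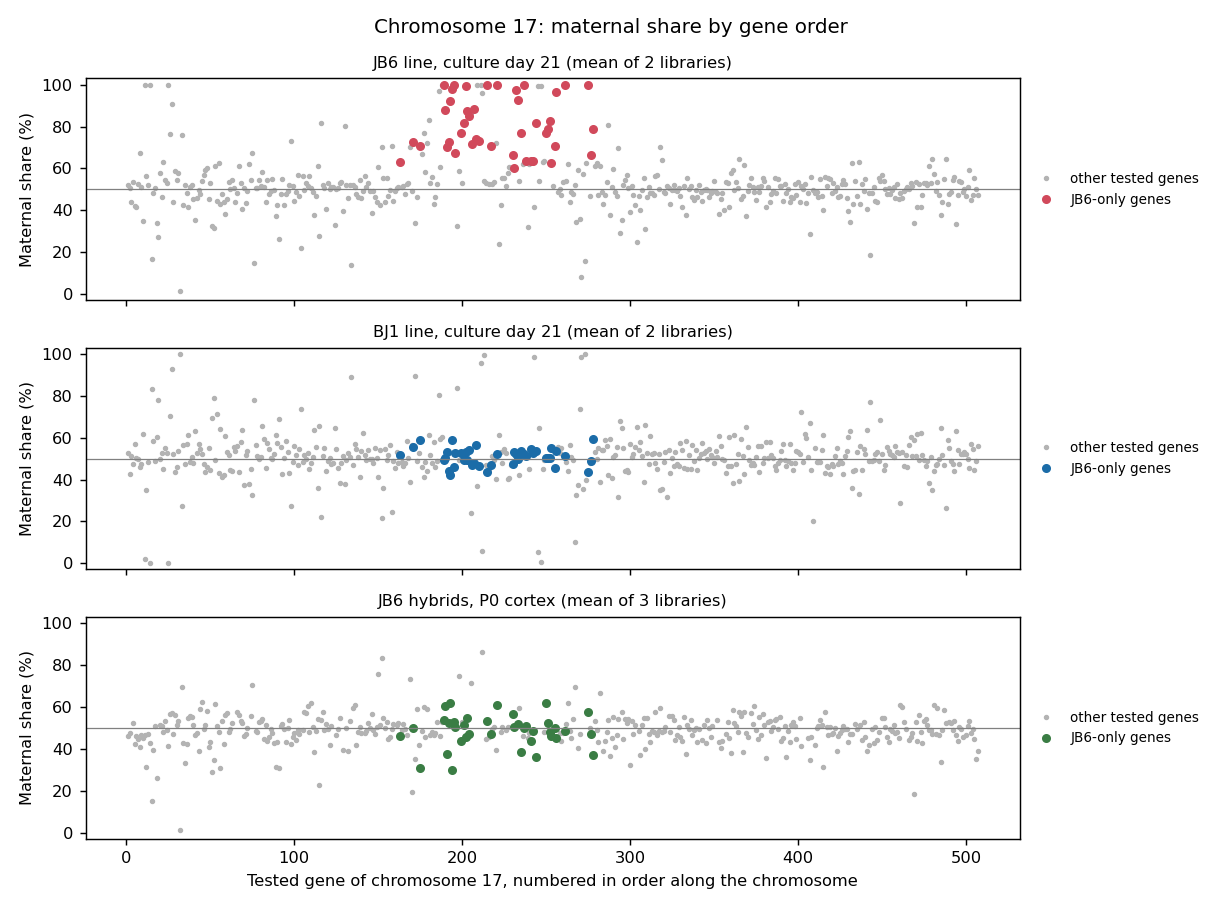
Mean maternal share (y axis, percent) of the tested genes of chromosome 17, numbered in order along the chromosome (x axis), in JB6 cultures at day 21, BJ1 cultures at day 21 and JB6 newborn (P0) cortex. Filled circles are the JB6-only genes and grey points the other tested genes. Of the 43 filled circles, 37 lie in 1 stretch. By the class rule, all 43 are at least 10 points from 50% in JB6 cultures and within 10 points in BJ1 cultures. All 43 are on the maternal side in JB6 cultures, and those tested in JB6 newborn cortex run from 30.0% to 62.0%.

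The 7 unlisted BJ1-only genes differed widely in size. The largest, given after their values were seen, were the class II antigen gene H2-Eb1, with shares of 99.5% and 99.4% in BJ1 and 50% and 57.9% in JB6, and A930015D03Rik, with 14.3% and 5.56% against 56.5% and 47.7%. Smaller biases on the same side in all 4 libraries were those of Galnt2, a glycosyltransferase gene, with shares of 61.5% and 63.9% in BJ1 and 51.7% and 53.5% in JB6 (adjusted p 1.14e-06), and the histone gene Hist1h2bc, with 69.6% and 61.7% against 53.5% and 56.5%. For 1500031L02Rik the shares were 36.6% and 36.5% against 45.4% and 47.8%, and the call was lost without any 1 library. Of the 6 genes of this group tested in newborn cortex, 0 were called there.

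Newborn (P0) cortex of hybrids from pure strains gave a comparison with tissue, with 4 BJ1 libraries (3 female and 1 male animals) and 3 JB6 libraries (all female). There, 57 of 10402 genes (0.548%) were called for parental bias. Of the 37 listed genes called at day 21 and tested at P0, 32 were called at P0 in the same direction. Of the 88 unlisted genes called at day 21 and tested at P0, 1 was. Among the unlisted JB6-only genes, 0 of 59 tested were called at P0, and their median share in JB6 cortex was 49.8%. Tubb5 had P0 means of 54.7% in BJ1 and 45.3% in JB6 hybrids, and Bag6 49.7% and 49.9%. The same genes already stood high in the undifferentiated JB6 ESCs, where the median share of the 72 was 75.4%, and in JB6 cultures at day 12, where it was 76.2%.

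The difference between day 21 and P0 was called for 89 of 9686 genes (0.919%), 78 of them more maternal at day 21 (0.805%) and 11 more paternal (0.114%). Of these, 52 were unlisted JB6-only genes (of 59 tested), which the rule had chosen on their day-21 values. Among listed features, 21 of 57 were called, 13 more maternal and 8 more paternal at day 21. The markers of neurons and of epithelium given above differ between these 2 groups of samples, and their part in these differences was not tested.

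The maternally expressed genes Grb10, Igf2r, Zim1 and Slc22a3 had more maternal reads in the cultures. Grb10 had a maternal share of 99.0% ± 0.173 (SD, n = 4) at day 21 and 73.3% ± 5.26 (SD, n = 7) at P0 (difference of log2 ratios 5.22 ± 0.266, adjusted p 2.67e-10). Grb10 is expressed from the paternal allele in neurons and from the maternal allele elsewhere. Igf2r had 91.9% ± 1.28 and 59.4% ± 2.75 (2.95 ± 0.121, adjusted p 1.13e-24), and Zim1 98.2% ± 0.948 and 55.7% ± 12.9 (5.38 ± 0.31, adjusted p 5.23e-18). The lowest day-21 library exceeded the highest P0 library in each of these 3 genes. Slc22a3 differed by 1.37 ± 0.291 (adjusted p 0.00424).

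Of the listed paternally expressed genes, 7 had more maternal reads at day 21, among them Snrpn, Ndn and Mkrn3 of the Prader-Willi domain. In BJ1 cortex, Snrpn and Ndn had a maternal share of 0% in all 4 P0 libraries, and in JB6 cortex Snrpn had 0.148% to 0.277% and Ndn 2.19% to 5.0%. The fitted differences, which depend on the prior count where a group is at 0, were 5.59 (adjusted p 0.00813) for Snrpn, 5.28 (2.53e-11) for Ndn and 4.61 (0.00504) for Mkrn3. The BJ1 maternal reads of Snrpn were present in ESCs (17.7% to 24.3%) and at day 12 (21.4% to 27.0%). Ndn had 42.9% to 43.8% in BJ1 ESCs and 50.0% to 64.3% in JB6 ESCs, above its day-21 values in both lines, but at a mean below the minimum of 20 read bases. Zdbf2 had a P0 mean of 4.89% ± 10.9 (SD, n = 7), with 1 library at 29.5%, against 47.2% ± 8.92 at day 21 (fitted difference 5.42 ± 0.701, adjusted p 0.000172). Slc38a4 (2.01 ± 0.305, adjusted p 1.92e-05), Usp29 (4.17 ± 0.727, adjusted p 0.000161) and Inpp5f (1.02 ± 0.159, adjusted p 1.56e-05) completed the 7. For Usp29 the JB6 means were 32.3% at day 21 and 0.167% at P0 and the BJ1 means 4.54% and 2.48% (test of the change in the line difference, adjusted p 5.77e-05). For Slc38a4, 1 P0 library was at 56.5%, above every day-21 library. Ltv1 (0.65) and Adam23 (0.62), whose direction is not fixed in the list, were also more maternal at day 21.

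The 8 listed features called in the other direction were more paternal at day 21. Blcap, Eif2c2, Trappc9 and Ube3a had P0 means of 73.1%, 69.2%, 70.4% and 72.8%, against 61.6%, 53.0%, 54.9% and 50.0% at day 21 (differences -0.81, -1.05, -0.98 and -1.37; adjusted p 2.63e-12, 1.3e-12, 5.0e-09 and 0.0124). These 4 genes are known for maternal expression in brain. Impact had a maternal share of 29.9% ± 13.6 (SD, n = 7) at P0 and 2.84% ± 1.17 (SD, n = 4) at day 21 (-3.47 ± 0.265, adjusted p 3.62e-14). Its P0 mean pools crosses that did not overlap, at 40.6% in BJ1 (37.0% to 42.9%) and 15.7% in JB6 hybrids (12.1% to 19.3%). Igf2 (-0.73), Rian (-1.47) and Mirg (-3.25) were the remaining members, and Rian and Mirg stayed above 90% maternal in every library of both stages.

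**Figure D4:**
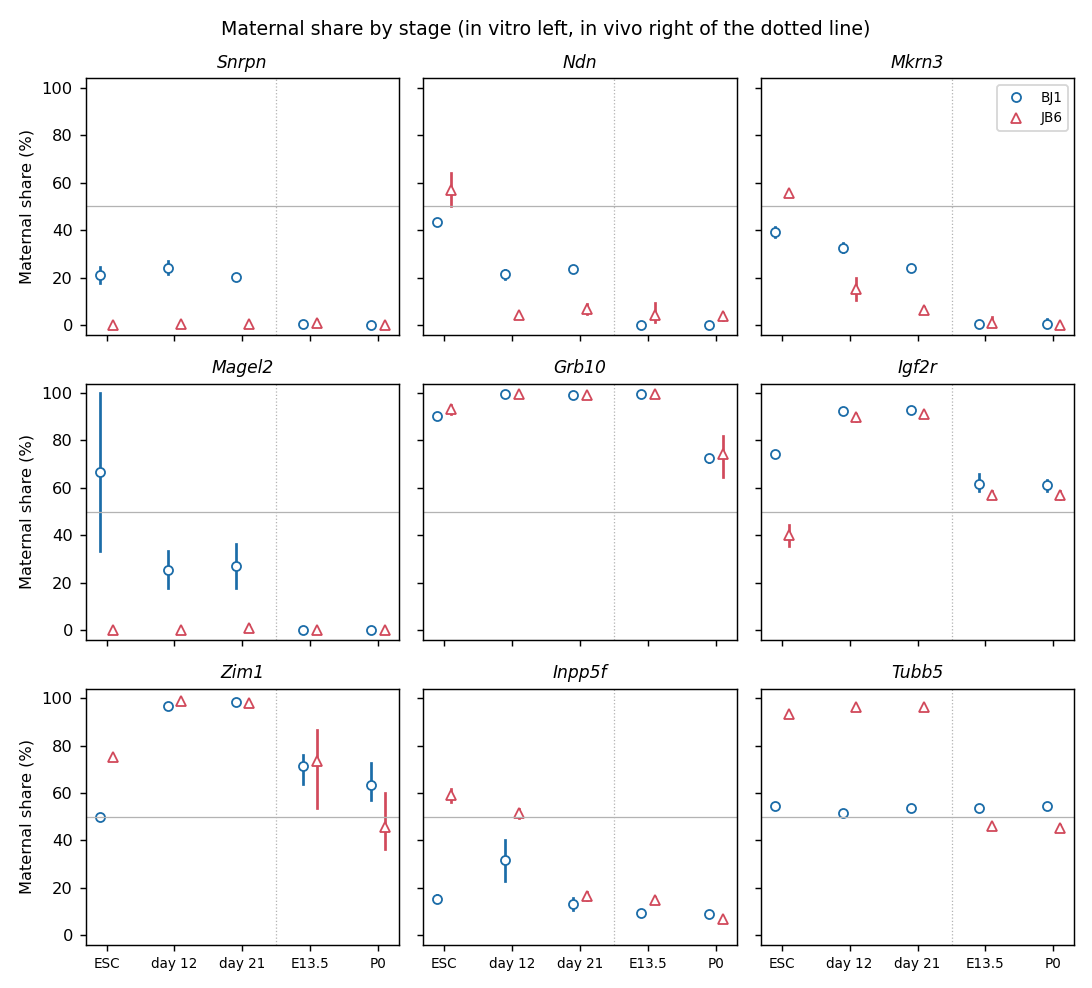
Maternal share (y axis, percent) of 9 genes by stage (x axis: ESC, culture days 12 and 21, then E13.5 and newborn (P0) tissue). Circles are means of BJ1 and triangles means of JB6 libraries, and bars run from the lowest to the highest library. The BJ1 means of Snrpn, Ndn and Mkrn3 stay above 20% in the 3 in vitro stages and lie at 0% to 0.641% in vivo, Grb10 is near 99% from day 12 to E13.5 and 73.3% at P0, and Tubb5 is above 90% in JB6 ESCs and cultures and near 50% elsewhere.

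Between culture days 12 and 21 few genes differed, with 5 of 10095 called (0.0495%). At day 12, 184 of 10345 genes (1.78%) were called for parental bias. Inpp5f had mean maternal shares of 31.6% in BJ1 and 51.5% in JB6 at day 12 and was lower in every day-21 library (difference -1.95, adjusted p 2.89e-09). Klhdc10, a ubiquitin ligase adaptor near Mest, had day-12 means of 67.4% and 63.7% and day-21 shares of 53.8% to 61.6% (-0.46, adjusted p 0.00753). Outside the lists, the DNA polymerase gene Poli (-0.82), the collagen gene Col1a2 (-0.58) and the proton pump gene Atp6v0e2 (0.36) were called. Their mean day-21 shares in BJ1 and JB6 were 36.3% and 51.2%, 60.1% and 34.9%, and 58.5% and 42.4%. For Col1a2 and Atp6v0e2 the B6 allele was thus the higher in both lines. Poli and Atp6v0e2 were not called for parental bias at day 21 (edgeR adjusted p 0.0943 and 0.983). The count of 5 genes became 2 without the second day-12 JB6 library. It was 3 without the second library of day-12 BJ1, day-21 BJ1 or day-21 JB6, or without the first of day-21 JB6.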

How the data were processed

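Per the file headers and the authors' notes, the deposited values are raw counts of allele-specific sense read bases per gene at JF1-B6 SNPs, made with SAMtools mpileup 0.1.18, pileup2base and Annovar after 6252 SNPs had been removed. Build mm9, Novoalign, CASAVA 1.8.2, edgeR and HTSeq are listed, with no role, in the submitters' processing notes. Libraries were stranded mRNA, per the labels. Read bases of 1 read are not independent molecules, and limits from a count of 0 (3 counts of the total) cover counting error only. Maternal and paternal columns of each library were fitted with edgeR 4.0.16 (robust quasi-likelihood, R 4.3.3) on library, strain and parent, with 1 library size per library. Calls had a Benjamini-Hochberg adjusted p of at most 0.05, and the fitting was tested on simulated data. A joint fit of 25 hybrid libraries gave the stage differences. Genes were named from the imprinted lists and, outside them, by size of the log2 ratio within each class among genes on the same side of 50% in all 4 libraries, or by size of the difference between stages; Daxx, Rps18, H2-Eb1 and A930015D03Rik were added after their values were seen. The members and lists were chosen with earlier results of these data known. Replicates of a line differed beyond sampling noise (chi-square per gene 11.4 in BJ1 and 36.7 in JB6). DESeq2 1.42.0, limma 3.58.1 and other settings were alternatives. The 6 libraries of the E14 line were not analysed here.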

Additional observations from a re-analysis of the deposited data

Results flagged for a closer look

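The difference between the lines (BJ1 minus JB6 log2 ratio of maternal to paternal read bases) passed its own test in 29 of 67 listed features, and the 12 called for parental bias with a difference of at least 2 in size are given here. It was positive, with more maternal reads in BJ1, for Dlk1 (3.06), Rian (3.48), Peg3 (2.2), Plagl1 (2.82), Magel2 (4.92), Mkrn3 (2.25), Ndn (2.19), Peg12 (6.19), Snrpn (6.36), the joined Snrpn and Snurf feature (9.87) and Zrsr1 (6.47), and negative for Usp29 (-3.25). Negative differences also passed for Atp10a (-3.28), which was not called for parental bias, and, at a smaller size, for Nnat (-1.46) and Gnas (-0.27). JB6 had no maternal read base for Peg12, Zrsr1 and the joined feature, so that their values depend on the prior count.

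The difference between day 21 and P0 passed its test for Grb10 (5.22), Zim1 (5.38), Ndn (5.28), Snrpn (5.59) and Zdbf2 (5.42). Outside the lists it passed for Bag6 (5.13), 2310061I04Rik (5.11), Stk19 (5.07), Wasf2 (5.01) and Erp44 (4.88), all without a paternal read base in JB6 at day 21, so that these values too depend on the prior count. Between days 12 and 21 the difference was -1.95 for Inpp5f, -0.46 for Klhdc10, -0.82 for Poli, -0.58 for Col1a2 and 0.36 for Atp6v0e2.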

How the results depend on the processing

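The 153 parental calls at day 21 became 99 with DESeq2 and 109 to 117 without 1 library, and other settings gave 120 (counts divided by 3) to 186 (no minimum). With the replicate number as a block they were 177, of which 152 were shared with the 153. H19 was the one named gene to lose its call under the block. Deviations of log2 allele ratios in same-numbered libraries had r = -0.0104 across genes. A shared preparation can leave allele ratios unchanged, so this value cannot show whether the libraries are paired. Dividing counts by 3 gave 1732 calls in BJ1, 1464 in JB6, 117 at day 12 and 2 between days 12 and 21. Leaving out 1 library gave 1256 to 2480 calls in BJ1 (1256 and 1416 without its first or second library), 1270 to 2170 in JB6 (1278 and 1270 likewise), 114 (without the second JB6 library of day 12) to 159 at day 12, and 2 to 5 between days 12 and 21. Genes biased in both lines were 26 at a mean of 100 or more read bases and 65 with 5 points in place of 10. BJ1-only genes were 6 with counts divided by 3, 6 with DESeq2, 4 with 20 points, and 7 to 10 without 1 library. The remaining class held 37 genes with no minimum, 14 with counts divided by 3, 4 with DESeq2, 52 with 20 points, and 6 to 10 without 1 library. Causes of these shifts were not tested. Among values of named genes under alternatives, 1223 kept their direction and side of the threshold, 133 lost the call, and 0 changed direction. With 2 libraries of 1 ESC line per cross, a feature of that line cannot be told from the cross, and shares of genes near 20 read bases are imprecise.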
